A study of Rattus norvegicus with 6 samples.

Results

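The S100A genes encode small calcium-binding proteins, and 8 of them were followed here in rat C6 glioma cells exposed to forskolin: S100a1, S100a3, S100a4, S100a6, S100a10, S100a11, S100a13 and S100a16. They were taken by symbol from a table of 32623 genes, where each symbol had 1 row, and all 8 passed the filter on low counts. C6 is an established rat glioma cell line. The cells received either forskolin (FSK), which activates adenylyl cyclase and so raises cAMP, or its solvent DMSO for 24 h, and bulk RNA sequencing gave 3 FSK and 3 DMSO libraries. No genetic alteration of the cells is named in the labels, and the FSK concentration is not given in the sources used here. Replicates are numbered in the labels, and nothing there says whether each was its own culture. The p-values therefore rest on the spread among these libraries alone, and that spread may be technical.

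S100 proteins carry EF-hand loops that bind calcium, and most of them work as dimers. Calcium binding exposes a surface that docks target proteins, among them annexins, cytoskeletal proteins and enzymes, so the proteins pass calcium signals on to motility, membrane traffic and growth. Several members are abundant in tumour cells, and S100b, the founding relative outside the A group, is a classic marker of astrocytes and glioma.

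The libraries held 72.7 to 79 M counts in FSK and 72.1 to 80 M in DMSO. Of 9 glial and glioma markers, 8 were tested and all 8 changed (5 rose and 3 fell, where 39.4% of all 14166 tested genes changed at an edgeR adjusted p under 0.05), with a summed level of 2113 to 2134 FPKM in FSK and 1550 to 1596 FPKM in DMSO. Among the 5 that rose were S100b, Sox10 and Olig2 (log2 fold changes 1.84, 0.82 and 0.70). Those that fell were Slc1a3, Nes and Cspg4 (log2 fold changes -1.38, -0.90 and -0.89). Vim, with the smallest change of the 8 (0.33), stood at 1366 to 1403 FPKM in FSK and 1141 to 1162 FPKM in DMSO. The astrocyte marker Aqp4 had 0 counts in every library. FPKM is the count scaled by transcript length and library size. Of 7 genes used as a check on the cAMP response, 6 rose and Per1 did not pass. Fos had 55.2, 53.2 and 56.4 CPM in FSK, against 7.97, 6.21 and 8.42 CPM in DMSO, where CPM is the count per M library counts after TMM scaling. Of 4 endothelial markers matched, Cdh5 and Cldn5 had 0 counts in all libraries and the summed level was 0.11 to 0.21 FPKM in FSK and 0.331 to 0.372 FPKM in DMSO. Of 7 microglial and myeloid markers, the summed level was 3.9 to 4.37 FPKM in FSK and 0.594 to 1.34 FPKM in DMSO, and most of it was Cd68, at 3.43 to 3.89 FPKM in FSK and 0.35 to 0.547 FPKM in DMSO. The leukocyte marker Ptprc had 0, 0 and 12 counts in FSK and 0 in every DMSO library. Epithelial and keratinocyte markers summed to 4.41 to 5.42 FPKM in FSK and 4.37 to 4.47 FPKM in DMSO, nearly all from Epcam, with Cdh1, Krt5 and Krt18 at 0 counts throughout. The part of these markers in the results below was not tested.

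Among the S100A genes, S100a3 rose 1.76-fold in FSK and S100a11 fell by 25.2%. The other 6 genes did not pass the test, with log2 fold changes between -0.17 and 0.12. Counted over all 14166 genes tested, 39.4% changed (19.6% rose and 19.8% fell, edgeR quasi-likelihood test, adjusted p under 0.05), against 2 of the 8 S100A genes. For the 1020 tested genes with transcripts of 250 to 700 bases, 18.9% rose and 5.39% fell. That class holds 6 of the 8 S100A genes (lengths as explained below). The median log2 fold change of the 8 genes was -0.01, as over all genes tested, and the median of its size was 0.12, against 0.31 over all genes tested. Libraries of FSK and DMSO did not overlap in CPM for S100a3, S100a4, S100a10 and S100a11, which is 4 of 8 genes, where 53% of all tested genes did not overlap. In bulk RNA, fewer cells of a type and less RNA per cell cannot be told apart.

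Levels, compared per transcript length, spanned more than 3 orders of magnitude. In both groups S100a4 stood highest, followed by S100a6, S100a10 and S100a11, then by S100a13, S100a1 and S100a3, with S100a16 lowest. Ranked on mean FPKM among all genes of the table, S100a4 was number 3 in FSK and number 4 in DMSO, and S100a6, S100a10 and S100a11 were numbers 47, 59 and 80 in FSK and 36, 46 and 49 in DMSO. Library ranges of neighbours in this order did not overlap, except that S100a10 (1446 to 1493 FPKM) and S100a11 (1259 to 1510 FPKM) overlapped in DMSO. In FSK these same genes were apart, at 1221 to 1352 FPKM for S100a10 and 940 to 1037 FPKM for S100a11. The 8 genes together made up 1.56, 1.59 and 1.49% of all summed FPKM in FSK, against 1.71, 1.69 and 1.65% in DMSO. Their share of all counts overlapped between groups, at 0.551, 0.555 and 0.519% in FSK and 0.574, 0.558 and 0.544% in DMSO. Within the summed FPKM of the 8 genes, S100a4 held 57.7 to 59.3% in FSK and 52 to 53.9% in DMSO. Its share was higher in every FSK library.

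**Figure D1:**
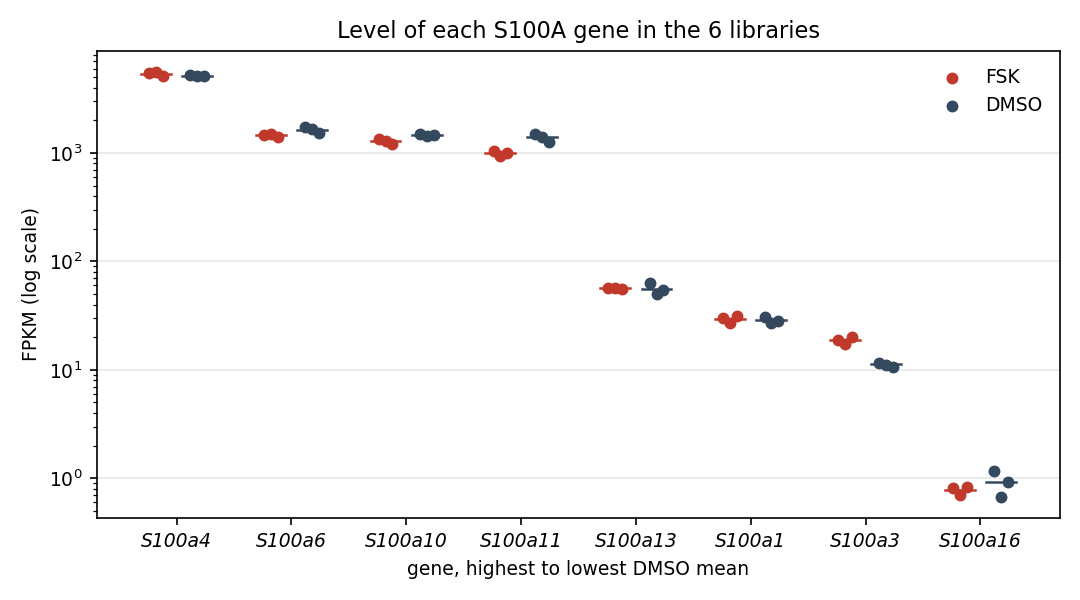
FPKM of each S100A gene (y axis, log scale) in the 3 FSK libraries (left points of each gene, red) and the 3 DMSO libraries (right points, dark), with bars at the group means. S100a4 stood at 5096 FPKM or more in every library, S100a16 lay near 1 FPKM, and the groups did not overlap in FPKM for S100a3, S100a6, S100a10 and S100a11. The share of all tested genes without overlap in FPKM was not computed. In CPM, S100a6 overlapped and S100a4 did not, where 53% of all tested genes did not overlap.

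S100a3 (ENSRNOG00000012008; Rnor_6.0 chr2:189955836-189996029, plus strand) encodes a zinc- and calcium-binding protein known from the hair cuticle. It had 18.3, 17 and 20.2 CPM in FSK libraries 1 to 3, against 11.1, 10.5 and 9.93 CPM in DMSO libraries 1 to 3. Every FSK library lay above every DMSO library. The mean was 18.5 ± 1.64 CPM in FSK and 10.5 ± 0.589 CPM in DMSO (SD, n = 3 each), a log2 fold change of 0.82 ± 0.10 (SE; 95% interval 0.58 to 1.06; edgeR adjusted p = 0.00061). These values rest on 1204 to 1539 counts in FSK libraries and 808 to 854 counts in DMSO libraries, and the call held in all 15 other settings (log2 fold change 0.70 to 0.88). The row spans 40.2 kb and ends 1099 bases before S100a4, whose level was far higher, and whether reads of the 2 genes mix was not tested. A small nuclear RNA row, RF00003, lies within the span and had at most 2 counts.

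S100a11 (ENSRNOG00000010105; chr2:193866951-193868502, plus strand), or calgizzarin, is a partner of annexin A1. Its level was 320, 293 and 315 CPM in FSK, against 456, 417 and 368 CPM in DMSO. The groups did not overlap, and the DMSO libraries spread more widely than the FSK libraries. The mean was 309 ± 14.6 CPM in FSK and 413 ± 43.9 CPM in DMSO (SD, n = 3 each), a log2 fold change of -0.42 ± 0.08 (95% interval -0.60 to -0.24; edgeR adjusted p = 0.00422). A further row on chromosome 17, AABR07026805, carries the same GO annotation as S100a11 and could share reads with it. That row had 36, 25 and 16 counts in FSK and 18, 41 and 57 in DMSO, against at least 20781 counts for S100a11. The call of S100a11 held in all 15 other settings, at -0.66 to -0.34.

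S100a4 (ENSRNOG00000011821; chr2:189997129-189999604, plus strand), also called metastasin, binds nonmuscle myosin and is known for cell motility. It had 3674, 3820 and 3554 CPM in FSK, against 3484, 3397 and 3274 CPM in DMSO. All 3 FSK libraries were above the DMSO libraries in CPM, though in the deposited FPKM the groups overlapped (5117 to 5582 FPKM in FSK and 5096 to 5252 FPKM in DMSO). The log2 fold change was 0.12 ± 0.05 (95% interval 0.02 to 0.23, before adjustment) with an edgeR adjusted p of 0.0644. The adjusted p was 0.0306 without DMSO replicate 1 and 0.0487 with DESeq2. It was 0.197 without FSK replicate 2 and 0.541 with limma on log2(FPKM + 1).

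S100a10 (ENSRNOG00000023226; chr2:193892589-193901236, plus strand), or p11, has lost calcium binding and forms a complex with annexin A2 at the cell membrane. Its level was 804, 778 and 744 CPM in FSK, against 869, 832 and 824 CPM in DMSO. Every FSK library was below every DMSO library. The mean was 776 ± 30.1 CPM in FSK and 842 ± 23.7 CPM in DMSO (SD, n = 3 each), a log2 fold change of -0.12 ± 0.05 with an edgeR adjusted p of 0.0805. The adjusted p was 0.0434 with upper-quartile factors and 0.254 without FSK replicate 3.

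S100a6 (ENSRNOG00000011647; chr2:190007216-190008511, plus strand), or calcyclin, binds the calcyclin-binding protein Cacybp. It had 716, 737 and 711 CPM in FSK, against 833, 782 and 713 CPM in DMSO, where DMSO replicate 3 lay within the FSK range. In the deposited FPKM the groups did not overlap, at 1417 to 1490 FPKM in FSK and 1535 to 1738 FPKM in DMSO. Its log2 fold change was -0.10 ± 0.06 (95% interval -0.24 to 0.04, edgeR adjusted p = 0.21). The value was -0.17 without DMSO replicate 3 (edgeR adjusted p = 0.0253) and -0.05 without DMSO replicate 1 (edgeR adjusted p = 0.48).

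The 3 remaining genes gave intervals that include 0. S100a1 (ENSRNOG00000012410; chr2:189900667-189903219, minus strand), best known as a regulator of calcium release in heart muscle, had 8.96, 8.11 and 9.42 CPM in FSK and 8.88, 7.75 and 7.94 CPM in DMSO (log2 fold change 0.11 ± 0.12; 95% interval -0.16 to 0.38). S100a13 (ENSRNOG00000012393; chr2:189906022-189912516, plus strand), which takes part in the release of the growth factor FGF1, had 28.3, 28.6 and 28.9 CPM in FSK and 31.3, 24.2 and 25.7 CPM in DMSO (log2 fold change 0.08 ± 0.11; 95% interval -0.16 to 0.33). The FSK libraries of S100a13 lay inside the range of the DMSO libraries, and its log2 fold change was 0.20 without DMSO replicate 1 (edgeR adjusted p = 0.0863) and 0.01 without DMSO replicate 2. S100a16 (ENSRNOG00000012053; chr2:189922996-189928848, plus strand) had only 75, 61 and 78 counts in FSK and 100, 65 and 87 in DMSO, so its log2 fold change of -0.17 ± 0.33 came with a 95% interval from -0.92 to 0.58. The coefficient of variation of its CPM was 9.02% among FSK libraries and 26.9% among DMSO libraries.

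Most of the 8 transcripts are short, and fold changes differed with transcript length across the table. The length implied by count, FPKM and library total ran from 292.4 bases for S100a1 to 1191 bases for S100a16, and 6 of the 8 genes lay between 250 and 700 bases. All 1020 tested genes of that length had a median log2 fold change of 0.15, against -0.16 for the 2902 genes in the longest of 4 length classes. With this trend removed in each library, a setting added after the data were seen, S100a3 stood at 0.72 and S100a11 at -0.66. Under that setting S100a10 and S100a6 were at -0.29 each and passed (edgeR adjusted p = 0.000532 and 0.00211), while S100a4, S100a1 and S100a13 changed sign to -0.03, -0.13 and -0.10 without passing.

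**Figure D2:**
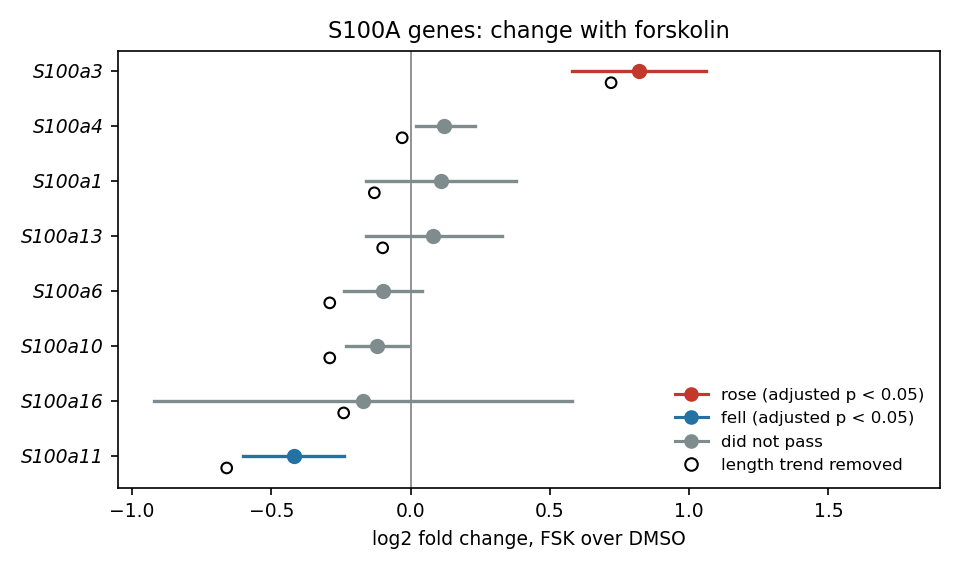
Log2 fold change of each S100A gene, FSK over DMSO (x axis), with filled points for the edgeR estimate and lines for its 95% interval. Open circles show the value with the transcript length trend removed, which lay below the filled point for every gene, and S100a3 (0.82) and S100a11 (-0.42) were the genes that passed in both.

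Proximal promoters of the members that changed most and of the most abundant member are shown so that they can be read beside these values. RefSeq sequences of the later rat build GRCr8 were matched by symbol for 6 of the 8 genes (S100a3, S100a4, S100a6, S100a11, S100a13 and S100a16). Each stretch below holds the 250 bases before the annotated start, plus strand, at chr2:178384263-178384512 for S100a3, chr2:181874882-181875131 for S100a11 and chr2:178388279-178388528 for S100a4. The S100a3 row counted on Rnor_6.0 spans 40.2 kb, more than separates the S100a3 and S100a4 windows of GRCr8. This S100a3 window may therefore not stand before the start of the counted row. Capitals mark the motif found.
S100a3: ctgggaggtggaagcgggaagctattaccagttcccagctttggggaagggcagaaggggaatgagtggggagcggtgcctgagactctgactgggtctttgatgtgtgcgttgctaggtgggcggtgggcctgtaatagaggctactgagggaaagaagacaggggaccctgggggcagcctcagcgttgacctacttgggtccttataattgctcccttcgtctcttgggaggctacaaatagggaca
S100a11: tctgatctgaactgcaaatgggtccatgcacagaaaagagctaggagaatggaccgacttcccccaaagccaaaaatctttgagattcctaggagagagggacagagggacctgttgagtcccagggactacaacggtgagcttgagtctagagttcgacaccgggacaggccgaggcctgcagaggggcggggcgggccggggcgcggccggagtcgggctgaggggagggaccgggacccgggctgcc
S100a4: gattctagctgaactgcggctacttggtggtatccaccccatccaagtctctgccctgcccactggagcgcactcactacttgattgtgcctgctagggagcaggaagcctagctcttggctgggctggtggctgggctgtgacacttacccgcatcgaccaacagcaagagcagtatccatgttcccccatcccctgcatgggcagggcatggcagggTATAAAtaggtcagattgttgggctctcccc
The capitals in S100a4 are a TATA box, TATAAA, that starts 31 bases before the start site. On both strands, 4 motifs were searched in these windows of the 6 genes: the cAMP response element TGACGTCA, its core TGACG, the AP-1 site TGANTCA and TATAAA. The core lies within the full element, so a window with the full element counts for both. The full element was in 0 of the 6 windows, against 1.59% of 33469 rat promoters of the same length. The core was in 0 of 6 against 18.2%, the AP-1 site in 0 of 6 against 6.34%, and TATAAA in 1 of 6 against 12.9%. Windows of S100a11 and S100a6 had 62 and 62.4% G and C, against 56.8% for S100a3, 57.6% for S100a4 and a median of 51.2% over all promoters. These matches describe letters in a short window only.

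The partners with which S100A proteins form complexes were set beside them. Anxa2, the annexin that pairs with S100a10, had 2023, 1994 and 1979 CPM in FSK, against 1888, 1851 and 1794 CPM in DMSO. Its log2 fold change of 0.12 ± 0.04 passed narrowly (edgeR adjusted p = 0.0494) and did not pass in 13 of the 15 other settings, where the adjusted p reached 0.413. The FPKM ratio of S100a10 to Anxa2 within a library was 0.955, 0.937 and 0.903 in FSK, against 1.11, 1.08 and 1.1 in DMSO. All FSK libraries had the lower ratio, a log2 difference of -0.23 (exact two-sided permutation p = 0.1, the smallest that 3 against 3 libraries allow, unadjusted over the 3 ratios examined). The ratio of S100a11 to Anxa1 was 4.93, 5.38 and 5.94 in FSK, against 7.84, 7.22 and 5.49 in DMSO, with overlapping groups and a log2 difference of -0.33 (exact two-sided permutation p = 0.2). The ratio of S100a6 to Cacybp was 33.9, 38 and 39.6 in FSK, against 39.9, 36.9 and 26.9 in DMSO, with a log2 difference of 0.12 (exact two-sided permutation p = 0.7) that was -0.05 without DMSO replicate 3. Adjusted over these 3 ratios by Benjamini-Hochberg, the lowest exact permutation p was 0.3.

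**Figure D3:**
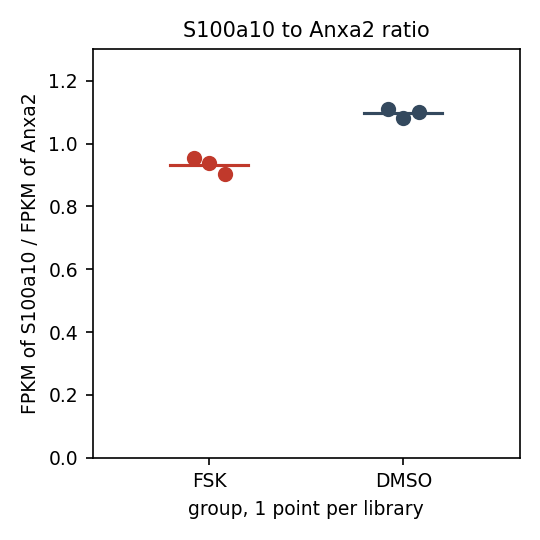
FPKM of S100a10 divided by FPKM of Anxa2 within each library (y axis), with 1 point per library and bars at the group means. The 3 FSK libraries lay between 0.903 and 0.955, below the 3 DMSO libraries at 1.08 to 1.11.

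Annexins, a family of membrane-binding proteins that several S100 proteins dock to, changed in both directions. Of 12 annexins, 9 were tested, 3 rose, 4 fell and 2 did not pass, with a median log2 fold change of -0.08, where 19.6% of all tested genes rose and 19.8% fell. Anxa8 had 6.41, 8 and 6.45 CPM in FSK, against 37, 35.8 and 34.6 CPM in DMSO (log2 fold change -2.36 ± 0.11, edgeR adjusted p = 4.3e-06). Anxa11 (-0.63 ± 0.06, adjusted p = 0.00013) and Anxa5 (-0.39 ± 0.04, adjusted p = 0.000268), both calcium-dependent phospholipid binders, also fell. Anxa3 had 26, 23 and 46 counts in FSK and 0 in every DMSO library, at least 11.1-fold higher with a floor of 3 counts per library. Leaving out any library other than DMSO replicate 1 took the annexins that rose to 2, since Anxa2 was lost.

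Of 23 reported partners, 17 were tested, 4 rose, 7 fell and 6 did not pass, with a median log2 fold change of -0.28 (19.6% of all tested genes rose and 19.8% fell). Plat, encoding tissue plasminogen activator, whose protein binds S100a10, had 125, 134 and 128 CPM in FSK, against 39.7, 34.6 and 38 CPM in DMSO (log2 fold change 1.79 ± 0.07, edgeR adjusted p = 1.22e-06). Fgf1, whose release involves S100a13, had 12.7, 12.2 and 13.9 CPM in FSK, against 29.8, 29.2 and 34.7 CPM in DMSO (-1.27 ± 0.10, adjusted p = 6.08e-05). Hltf, a chromatin remodeller reported in mouse as a target of S100a10 with annexin A2, fell by 1.11 ± 0.24 (adjusted p = 0.00733). Syt1, a synaptic vesicle protein reported with S100a13, was low, at 12 to 38 counts in FSK and 56 to 77 in DMSO, and its call (-1.53 ± 0.53, adjusted p = 0.0495) was lost without DMSO replicate 1, 2 or 3 or FSK replicate 2 or 3 (adjusted p = 0.0833 to 0.131). Named after their values were seen, the S100a4 partners Myh9 (-0.46 ± 0.08, adjusted p = 0.00338), Myh10 (-0.81 ± 0.05, adjusted p = 1.84e-05) and Ppfibp1 (-0.28 ± 0.06, adjusted p = 0.00583, and 0.075 with the length trend removed) fell, while S100a4 itself did not pass. Partners that rose numbered 2 without DMSO replicate 2, FSK replicate 2 or FSK replicate 3. Cacybp had 99, 91 and 84.2 CPM in FSK, against 98, 99.4 and 124 CPM in DMSO, and did not pass (-0.23 ± 0.10, adjusted p = 0.113).

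Of 30 other EF-hand calcium genes, 29 symbols were matched and 27 rows tested, of which 4 rose, 9 fell and 14 did not pass (median log2 fold change -0.14), beside 39.4% of all tested genes that changed. Hpcal1, a neuronal calcium sensor, fell by 0.90 ± 0.07 (edgeR adjusted p = 4.54e-05), and Sri, encoding sorcin, fell by 0.68 ± 0.06 (adjusted p = 9.38e-05). Calu, encoding calumenin of the endoplasmic reticulum, fell by 0.51 ± 0.08 (adjusted p = 0.00145). Outside the A group, S100b had 545, 551 and 542 CPM in FSK, against 142, 162 and 154 CPM in DMSO, a log2 fold change of 1.84 ± 0.06 (adjusted p = 5.91e-07). Its mean of 350 ± 6.04 FPKM in FSK and 103 ± 7.37 FPKM in DMSO (SD, n = 3 each) lay below those of the 4 most abundant S100A genes. S100a5, next to S100a4, had 20, 44 and 25 counts in FSK and 40, 41 and 26 in DMSO and did not pass (-0.18 ± 0.55). The inflammatory genes S100a8 and S100a9 had 0 counts in all 6 libraries, as had S100a7a, S100a7l2, S100g and S100vp, and S100z had 3 counts in 1 FSK library. S100a2, S100a14 and S100p were not analysed here.

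**Figure D4:**
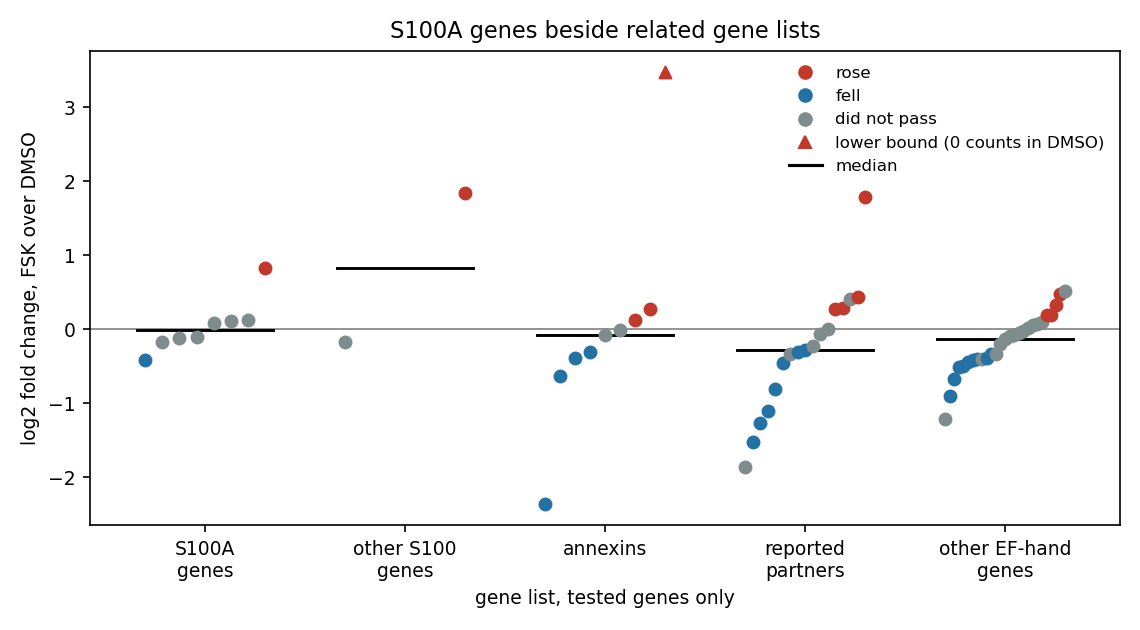
Log2 fold change, FSK over DMSO (y axis), of every tested gene of 5 lists, with red for rose, blue for fell, grey for did not pass and black bars at list medians. The triangle is the lower bound for Anxa3, which had 0 counts in DMSO, and the S100A genes lay between -0.42 and 0.82.

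All 8 genes lie on chromosome 2 in 2 blocks. A run of 6, from S100a1 through S100a13, S100a16, S100a3 and S100a4 to S100a6, spans 108 kb, and S100a11 and S100a10 span 34.3 kb at a distance of 3.86 Mb. Within 100000 bases of a member the table had 23 rows, of which 12 are S100 genes. Of the other 11 rows, 6 were tested, 4 rose and 0 fell (19.6 and 19.8% of all tested genes). The risers lie on the S100a1 side of the run, with Chtop between them and S100a1. Ints3, of the Integrator complex, had 152, 161 and 167 CPM in FSK, against 134, 128 and 115 CPM in DMSO (log2 fold change 0.35 ± 0.07, edgeR adjusted p = 0.00539). Npr1, a natriuretic peptide receptor, was low, at 2.2, 3.08 and 3.57 CPM in FSK and 1.29, 1.57 and 1.55 CPM in DMSO (2.01-fold, adjusted p = 0.0129, and 0.0514 without FSK replicate 3). Snapin (0.35 ± 0.08, adjusted p = 0.0102) and Ilf2 (0.18 ± 0.05, adjusted p = 0.0265) also rose, Ilf2 with adjusted p = 0.0638 to 0.0859 without DMSO replicate 1 or 3 or FSK replicate 2 or 3. Chtop, next to S100a1 on the same strand, had 123, 77.2 and 117 CPM in FSK, with FSK replicate 2 low, and 131, 130 and 115 CPM in DMSO, and did not pass (-0.24 ± 0.16, adjusted p = 0.263). Within the S100 run, S100a3 rose between S100a16 and S100a4, neither of which passed, and S100a11 fell beside S100a10, which did not pass. The nearest tested neighbour of S100a11 on its other side, a low pseudogene row, did not pass (0.17 ± 0.47). The remaining 5 rows, among them Tchh, encoding trichohyalin of hair follicles, were not tested. Of these, 4 had 0 counts in every library.

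**Figure D5:**
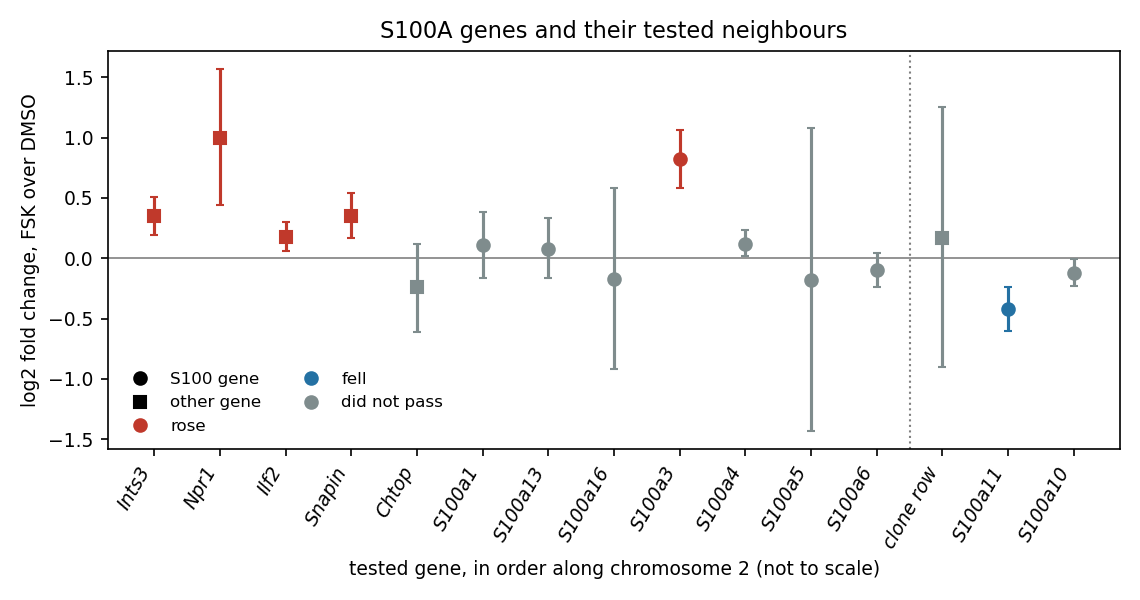
Log2 fold change, FSK over DMSO, with its 95% interval (y axis), of the tested S100 genes (circles) and other tested genes (squares) within 100000 bases of a member, in order along chromosome 2 and not to scale. The dotted line marks the gap of 3.86 Mb, the clone row is the pseudogene, and 4 of the 5 genes left of S100a1 rose.

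Patterns most like those of S100a4 and S100a3 were sought among 7590 genes with a symbol and a mean of at least 5 FPKM, by Pearson correlation of log2 CPM over the 6 libraries. Where the groups differ, such a correlation can mostly follow the difference between FSK and DMSO. With 7590 genes searched over only 6 libraries, high correlations also arise from the search alone. Whether those below exceed that was not tested. For S100a4, the highest level of the group, these were Mrpl40 (r = 0.990), Fbxo46 (r = 0.986) and Gtf2h3 (r = 0.980). Mrpl40, a mitochondrial ribosomal protein gene, averaged 33.9 ± 1.75 CPM in FSK and 29.9 ± 1.85 CPM in DMSO (SD, n = 3 each) and did not pass (edgeR adjusted p = 0.112). For S100a3, the largest change of the group, they were Tmem198b (r = 0.999), Tmem59 (r = 0.998) and Supt4h1 (r = 0.998). Tmem59 averaged 242 ± 11 CPM in FSK and 175 ± 4.22 CPM in DMSO (SD, n = 3 each), a log2 fold change of 0.47 ± 0.05 (edgeR adjusted p = 0.000313).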

How the data were processed

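RNA of 3 FSK and 3 DMSO libraries of C6 cells was sequenced by the authors. The deposited table holds raw counts per gene and, beside them, FPKM computed by the authors (0.0001 where the count is 0). Cutadapt, HISAT2, StringTie and Rnor_6.0 are named in the submitters' processing notes, as are edgeR and DESeq2; the sources used here give no versions, annotation release or strand handling, so antisense reads cannot be told apart. Library totals were 72.1 to 80 M counts.

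Counts were tested with edgeR 4.0.16 (R 4.3.3; TMM, low-count filter with a minimum count of 10, quasi-likelihood test, Benjamini-Hochberg over 14166 genes, threshold 0.05), with SE taken as the absolute log2 fold change over the root of F. The script was tested on simulated data. Ratios were tested with exact permutation in SciPy 1.17.1 (Python 3.11.15). Alternatives used DESeq2 1.42.0 and limma 3.58.1. Implied length is the count over FPKM and library total. Promoters are from RefSeq, build GRCr8, and none of its coordinates was joined to Rnor_6.0.

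All 8 members, other S100 genes with counts, up to 4 passing genes per list by size of log2 fold change, Anxa1, Anxa2, Cacybp and genes within 100000 bases were named. A gene that this rule also names is not reported here. The members and lists were chosen with earlier results of these data known.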

Additional observations from a re-analysis of the deposited data

How the results depend on the processing

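S100a3 stayed higher in FSK (0.70 to 0.88 on the log2 scale) and S100a11 lower (-0.66 to -0.34), each past the threshold in all 15 alternatives. The count of S100A genes that rose was 2 with DESeq2, where S100a4 passed (adjusted p = 0.0487), and 1 to 2 when 1 library was left out. The count that fell was 2 with upper-quartile factors, 2 with limma on log2(FPKM + 1), 3 with limma on log2(FPKM + 0.1) and 1 to 2 when 1 library was left out. S100a10 passed in those 3 settings (adjusted p = 0.0434, 0.0263 and 0.0231), and S100a6 passed with the pseudocount of 0.1 (adjusted p = 0.0489). With the length trend removed, an alternative chosen after seeing the data, 3 fell, and S100a1 (-0.13), S100a13 (-0.10) and S100a4 (-0.03) changed sign. S100a16 ranged from -0.35 to 0.05 when 1 library was left out, the value above 0 being that without DMSO replicate 1. The cause of these changes was not tested. The log2 ratio difference ranged from -0.25 to -0.21 for S100a10 to Anxa2, from -0.48 to -0.22 for S100a11 to Anxa1 and from -0.05 to 0.24 for S100a6 to Cacybp when 1 library was left out, the value of -0.05 being that without DMSO replicate 3. Over all genes, 2160 to 3018 rose and 2076 to 3390 fell across the alternatives, against 2772 and 2804.

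No effect shared by replicate number was visible: deviations of same-numbered FSK and DMSO libraries correlated at -0.0353, 0.0173 and -0.0257. With 3 libraries per group, these values cannot show whether the libraries were set up in pairs. With the replicate number as a block, 1 S100A gene rose and 1 fell, and over all genes 2160 rose and 2165 fell. S100a16 rested on 61 to 100 counts per library, the fewest of the 8 genes.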
